A study of Mus musculus with 6 samples.

Results

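The cytosolic ribosomal protein genes were the 80 protein-coding genes of the deposited table whose symbols name a protein of the cytosolic ribosome (Rps or Rpl with a number, Rplp0 to Rplp2 and Rpsa), of 17924 genes in all. They comprised 31 genes of the small subunit (Rps) and 49 of the large subunit (Rpl), and lay on 19 chromosomes. All 80 passed the filter on low values, so that every member was tested. Symbols that the rule does not name, such as Rps3a1, Fau and Rack1, were taken as a separate list, and kinases of the Rps6k family were left out. The study deleted Nelfb, a subunit of the negative elongation factor that holds RNA polymerase II paused near the start of genes, to ask what this factor does in the dermal adipocyte lineage. Fibroblasts were isolated from the dorsal dermis of newborn (P0) mice on a C57BL/6J background and kept for 14 days in adipocyte differentiation medium, and RNA-seq was then performed. Nelfb-/- cells (Nelfb fl/fl Pdgfra-Cre+) were compared with CTL cells (Pdgfra-Cre+ with Nelfb either wt/wt or fl/wt), in 3 biological replicates each. Cre was carried by both groups and acts in cells that express or have expressed Pdgfra, so that other cells in the culture would keep Nelfb. Which control genotype each CTL replicate had is not given in the sources used here.

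Each ribosome contains about equal numbers of nearly all of its proteins, and the genes of these proteins are scattered over the genome. Their mRNAs are among the most abundant and stable of the cell, and most of them begin with a short run of pyrimidines, the terminal oligopyrimidine (TOP) motif, through which mTORC1 signalling controls their translation. The same abundance has left mammalian genomes with many processed pseudogenes, intronless copies of these mRNAs that were inserted elsewhere, and such copies can receive the reads of the parent gene.

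Values are given in CPM (counts per 1000000 reads of the table) and were not corrected for gene length. Depth lay between 17.2 and 29.4 M reads (M, 1000000) in the 6 libraries, as read from the smallest step between values. The targeted gene, Nelfb, was at 19.8 ± 2.53 CPM in the CTL and at 4.98 ± 0.938 CPM in the Nelfb-/- libraries (mean ± SD, n = 3 each), and its log2 fold change, Nelfb-/- over CTL, was -1.99 ± 0.22 (SE, with adjusted p = 0.00502 by limma). Markers of other cells moved with the groups: 14 of 15 macrophage markers were called higher in Nelfb-/- cells, and their summed level was 267 to 971 CPM in CTL and 2636 to 8297 CPM in Nelfb-/- libraries. For skeletal muscle 6 of 6 tested markers, for melanocytes 6 of 7 and for Schwann cells 4 of 7 (with Mbp called lower) were called higher, at summed levels in Nelfb-/- libraries of 56.4 to 109, of 103 to 214 and of 629 to 802 CPM, against at most 11.3, 81.6 and 408 CPM in CTL. Both of the last lists hold Sox10. Tyr, the tyrosinase of melanocytes, was listed at 0 in all CTL libraries. Keratinocyte markers summed to at most 14.6 CPM (1 of 4 tested called higher) and endothelial markers to at most 23.5 CPM (1 of 6). Adipocyte markers were present in all libraries, with sums of 24511 to 41574 CPM in the CTL libraries versus 16912 to 25287 CPM in the Nelfb-/- libraries, with 1 of 12 called lower (Retn) and 1 higher (Lep). Fibroblast markers summed to 8538 to 25396 and 15691 to 44234 CPM, and 1 of 10 (Fn1) was called higher. The 27 proliferation genes summed to 212, 218 and 1026 CPM over CTL replicates 1 to 3, versus 297, 1245 and 1101 CPM over the Nelfb-/- replicates, with 0 called by limma, so that they split the libraries across the groups. The part of these differences in the levels of the ribosomal protein genes was not tested. In bulk RNA, fewer cells of a type and less RNA per cell cannot be told apart.

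Ribosomal protein genes were lower in Nelfb-/- than in CTL cells as a group. Together they took 9536, 9946 and 13588 CPM of the CTL libraries, versus 7134, 8952 and 8224 CPM of the Nelfb-/- libraries (replicates 1, 2 and 3 in this order, as in all values by library). The sums did not overlap, and CTL replicate 1 and Nelfb-/- replicate 2 lay closest to each other across the groups. Their mean was 11023 ± 2231 CPM for CTL versus 8103 ± 915 CPM for Nelfb-/- (SD, n = 3), a ratio of 0.735. The log2 fold change was below 0 for 76 of the 80 genes (95.0%), where it was below 0 for 45.4% of all 16252 genes tested. Its median was -0.38 over the members and 0.07 over all genes tested. The small and the large subunit had like medians, -0.37 over 31 genes and -0.38 over 49.

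The difference was made up of many small shifts. Every Nelfb-/- library was below every CTL library at 44 members (55.0%), against 16.1% of all genes tested, and no member had the groups apart in the other direction. An adjusted p of 0.05 was passed by 11 members, all of them lower in Nelfb-/- cells (13.8%, against 5.83% of all genes tested), and 5 of them were also lower by at least 2-fold (3.64% of all genes tested). By comparison, 9.96% of all genes tested were called higher, and none of the 80 members was. The 33 members that had the groups apart but did not pass had Nelfb-/- means of 0.595 to 0.830 times the CTL mean, with adjusted p of 0.0546 to 0.357 (limma).

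The libraries of a group were not alike. CTL replicate 3 was the highest of the 6 libraries at 71 of 80 members, at a median of 1.36 times the mean of the other CTL libraries, and Nelfb-/- replicate 1 was the lowest at 56, at a median of 0.839 times the mean of the other Nelfb-/- libraries. Leaving out CTL replicate 3 brought the median log2 fold change to -0.25, with 11 members called, all lower (7.92% of all genes were called lower, and 22.5% in either direction). Leaving out Nelfb-/- replicate 1 brought it to -0.30, with 9 called, all lower (7.56% of all genes called lower, and 18.3% in either direction). Without both, which leaves 2 libraries per group, the median was -0.16, and both CTL libraries were above both Nelfb-/- libraries at 45 members, against 37% of all genes tested in that fit. At some other members, such as Rpl7l1, Rpl27 and Rps21, both CTL libraries were below both Nelfb-/- libraries. The number of calls varied more than the shift: 3 members were called without CTL replicate 1 (1.63% of all genes called lower), 0 without CTL replicate 2 (1.45%), 1 without Nelfb-/- replicate 2 (2.25%) and 0 without Nelfb-/- replicate 3 (0.851%, limma). The share of all genes called in either direction fell from 15.8% to between 2.68% and 6.33% in these 4 fits. The median stayed between -0.47 and -0.39 in them.

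**Figure D1:**
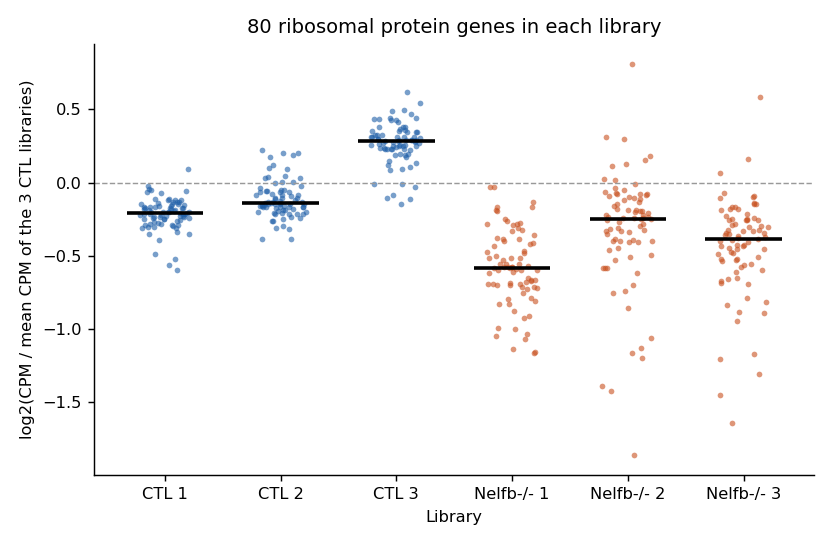
Level of the 80 ribosomal protein genes in each library, as log2 of the CPM over the gene's mean in the 3 CTL libraries (y axis) by library (x axis). Points are genes and bars are medians, and the CTL 3 points are shifted upwards and the Nelfb-/- 1 points lie lowest.

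Among the members that were called, Rpl41, the smallest ribosomal protein, had the most CPM of those that fell by over 2-fold. It was measured at 275, 305 and 444 CPM in the CTL libraries versus 153, 156 and 152 CPM in the Nelfb-/- libraries. The Nelfb-/- libraries differed little from each other and all lay well below the lowest CTL library. Its log2 fold change was -1.12 ± 0.20 (SE, with adjusted p = 0.0168 by limma). Rplp0, the scaffold of the ribosomal stalk that recruits translation factors, was at 715, 766 and 1045 CPM in the CTL libraries versus 379, 500 and 478 CPM in the Nelfb-/- libraries. It had a log2 fold change of -0.89 ± 0.22 (SE, with adjusted p = 0.0422 by limma). The acidic stalk proteins that bind to Rplp0 did not pass the test: Rplp1 was at 303, 309 and 499 CPM in the CTL libraries versus 169, 261 and 232 CPM in the Nelfb-/- libraries (log2 fold change -0.73, SE 0.27), and Rplp2 at 129, 154 and 166 against 102, 127 and 104 CPM (-0.43, SE 0.16). Both had the groups apart.

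Rpl39, which lines the exit tunnel of the large subunit, was at 78.6, 86.3 and 124 CPM in the CTL libraries versus 48.2, 53.1 and 52.1 CPM in the Nelfb-/- libraries, with a log2 fold change of -0.88 ± 0.19 (SE, with adjusted p = 0.0286 by limma). Rpl23 was at 103, 96.7 and 89.9 CPM against 59.0, 67.0 and 56.1 CPM (log2 fold change -0.67, SE 0.13). Rpl23 was a member at which CTL replicate 3 was the lowest and not the highest CTL library. Rps6, the target of the S6 kinases downstream of mTORC1, was at 73.4, 82.5 and 86.2 CPM in the CTL libraries versus 46.2, 49.8 and 50.2 CPM in the Nelfb-/- libraries, with a log2 fold change of -0.73 ± 0.12 (SE, with adjusted p = 0.0144 by limma). Rpl11, which together with Rpl5 can bind and inhibit Mdm2, was at 25.1, 27.7 and 34.0 CPM against 16.6, 18.9 and 18.5 CPM (log2 fold change -0.68, SE 0.16). In these 4 genes the groups did not overlap.

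The other 5 called members had low values in their own rows. Rpl12, at the base of the stalk, was at 23.6, 29.3 and 23.5 CPM in the CTL libraries versus 15.1, 7.02 and 8.17 CPM in the Nelfb-/- libraries, the lowest log2 fold change of the 80 members (-1.41, SE 0.31). Rps12 was at 11.4, 12.7 and 11.7 CPM against 5.71, 4.45 and 4.82 CPM (log2 fold change -1.26, SE 0.18). Rpl9 was at 14.7, 14.8 and 19.3 CPM against 9.82, 7.26 and 8.79 CPM (log2 fold change -0.91, SE 0.20). All 3 had the groups well apart, but they drew few reads for genes of this kind. Rpl36a was at 6.07, 6.37 and 8.22 CPM against 3.37, 3.31 and 2.996 CPM (log2 fold change -1.07, SE 0.22). Rps27, a zinc-finger protein of the small subunit, was at 2.53, 2.76 and 2.43 CPM against 1.29, 1.12 and 0.940 CPM (log2 fold change -1.18, SE 0.27), which at the mean over libraries is worth 41.2 reads. Each of the 11 calls was lost in at least 2 of the 6 fits that left out 1 library, with log2 fold changes that stayed below -0.55 in all of them.

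**Figure D2:**
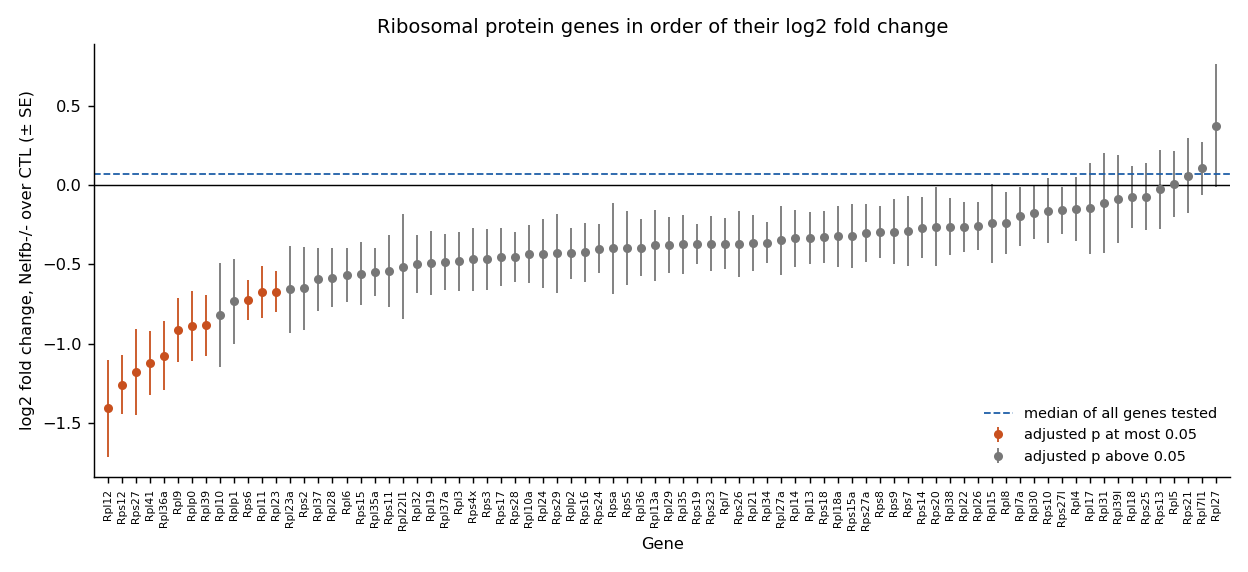
Log2 fold change of each of the 80 ribosomal protein genes, Nelfb-/- over CTL, with its SE (y axis), in increasing order (x axis). Most genes lie in a continuous band below 0 and below the dashed median of all 16252 genes tested (0.07), and the 11 genes that passed the adjusted p are among the 13 lowest, together with Rpl10 and Rplp1, which did not pass.

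Among the members that were not called, some overlapped between the groups. Rpl27 (6.60, 5.96 and 10.7 CPM in the CTL libraries versus 5.82, 13.6 and 11.7 CPM in the Nelfb-/- libraries) had the highest log2 fold change, 0.37 (SE 0.39). Rpl7l1, a paralog of Rpl7, had a log2 fold change of 0.11 (SE 0.17), Rps21 of 0.06 (SE 0.23) and Rpl5 of 0.01 (SE 0.21). These were the 4 members with a log2 fold change above 0, and in all 4 the groups overlapped. Rpl4, whose mean CPM was the highest of the members, was at 757, 757 and 974 CPM in the CTL libraries versus 660, 824 and 751 CPM in the Nelfb-/- libraries (log2 fold change -0.15, SE 0.20), and Rpl8 at 383, 416 and 541 against 331, 424 and 374 CPM (-0.24, SE 0.20). Rpsa, also known as the laminin receptor, was at 341, 338 and 519 CPM against 211, 379 and 328 CPM (-0.40, SE 0.29), and Rps27a, which is made as a fusion with ubiquitin, at 33.5, 37.5 and 47.9 against 27.7, 34.8 and 33.3 CPM (-0.30, SE 0.18). In each of these 4 genes at least 1 Nelfb-/- library reached into the range of the CTL libraries. Rpl10, a protein that joins the large subunit late in assembly, was at 13.3, 18.4 and 15.7 against 14.0, 6.02 and 8.22 CPM (-0.82, SE 0.33), and its overlap came from Nelfb-/- replicate 1. Without that library its log2 fold change was -1.15 and it was called lower (adjusted p = 0.029 by limma), while over the fits without another library the adjusted p was 0.184 to 0.348 (limma).

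Rows under other gene names held sequences like those of these genes. A search of the annotated mouse transcripts with the coding sequence of each member found 984 genes with at least 90% identity over at least 80% of the coding sequence, and 297 of them had a row in the table. These copies were present for 76 of the 80 members. The copies summed to 15624, 16023 and 21247 CPM in CTL and to 11214, 13806 and 12630 CPM in Nelfb-/- libraries, more than the members themselves in each library. At 56 members the copies together had more CPM than the member, and 16 members held under 10% of the CPM of their family (member plus copies), with a median share of 32.8%. How reads that match several genes were assigned is not given in the sources used here, so that the split between a member and its copies is uncertain. Of the 11 called members, 6 held under 10% of their family (Rpl9, Rpl11, Rpl12, Rpl36a, Rps12 and Rps27), and 3 held over 60% (Rpl39, Rplp0 and Rpl41).

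Coding sequences show how alike these rows are. The coding sequence of Rpl41 (mm10 chr10:128548114-128549305, minus strand) has 78 bases and was the same in Gm10076 (chr14:105681828-105682211, plus strand), a row of 145, 140 and 217 CPM in the CTL libraries versus 74.7, 77.0 and 83.9 CPM in the Nelfb-/- libraries, so that it is printed once, from GENCODE vM21.
Rpl41 and Gm10076: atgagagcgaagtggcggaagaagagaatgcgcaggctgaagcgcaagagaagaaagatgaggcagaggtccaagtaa
Rpl36a (chrX:134585654-134588062, plus strand) was identical over all 321 coding bases to Rpl36a-ps2, whose row was at 99.6, 97.3 and 126 CPM in the CTL libraries versus 36.9, 38.0 and 39.0 CPM in the Nelfb-/- libraries. From Rpl36a-ps1 (chr14:98993870-98994318, minus strand) it differed at 7 coding bases, all within the first 150, which are shown with the differing bases in capitals. Past these bases the genes cannot be told apart for 182 bases.
Rpl36a: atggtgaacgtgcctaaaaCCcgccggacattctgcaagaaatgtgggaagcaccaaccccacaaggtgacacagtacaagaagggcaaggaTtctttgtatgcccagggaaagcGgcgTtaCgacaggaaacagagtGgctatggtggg
Rpl36a-ps1: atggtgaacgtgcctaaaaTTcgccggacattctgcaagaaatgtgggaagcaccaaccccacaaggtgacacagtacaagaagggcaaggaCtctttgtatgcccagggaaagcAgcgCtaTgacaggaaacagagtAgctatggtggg
Identity over the whole coding sequence was also found for Rps27 with Rps27rt (255 bases), Rps12 with Rps12-ps3 and Rps12l1 (399), Rpl12 with Gm10275 (498), Rps6 with Rps6-ps4 (750), Rpl10 with Rpl10-ps3 (645) and Rpl5 with Gm15500 (894). Rpl9 and Rpl9-ps6, Rpl11 and Gm10288, and Rpl23 and Gm9794 differed at 1 base each.

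The levels of the copies moved with those of the members. Of the 240 copies that could be tested, 231 had a log2 fold change below 0 (96.3%, against 45.4% of all genes tested), with a median of -0.52, and 26 were called lower (10.8%, against 5.83%) and 0 higher (limma). These rows are not independent of the members, since they may hold the same reads. Nor are all of them independent of each other: some, such as Rpl35a-ps2 and Rpl35a-ps3, had the same values in every library. When each member was summed with its copies, the median log2 fold change was -0.41, the groups were apart at 52 members (65.0%, against 15.6% of all rows tested in that fit), and 12 members were called lower (15%, against 5.75%). Of the 11 calls on the member rows, 9 were made on the sums too. The calls on Rpl12 and Rps12 were lost: with its copies, Rpl12 had a log2 fold change of -0.53 (adjusted p = 0.194) and Rps12 of -0.65 (adjusted p = 0.0732, limma). The row of Rpl12 was 5.4% of its family in CTL and 3.2% in Nelfb-/- cells, while its copy Gm10275 was at 351, 352 and 616 CPM in the CTL libraries versus 255, 340 and 311 CPM in the Nelfb-/- libraries. In turn Rpl23a, Rpl24 and Rpl35a were called only as sums, with log2 fold changes of -1.17, -0.65 and -0.54. Rpl36a with its copies had the lowest value, -1.49 ± 0.14 (SE, with adjusted p = 0.00408 by limma), and Rpl41 with its copies remained at -1.09. Rpl5, near 0 in its own row, was at -0.47 with its copies (not called), and its row was 1.5% of its family in CTL. Rpl10, whose own row overlapped between the groups, held 2.5% of its family. Its copies summed to 526, 552 and 753 CPM in the CTL libraries versus 374, 386 and 366 CPM in the Nelfb-/- libraries, without overlap. Rpl27, highest in its own row, held 4.7% of its family. The copies of Rpl27 summed to 155, 164 and 221 CPM in the CTL libraries versus 162, 214 and 186 CPM in the Nelfb-/- libraries. Some rows that were summed hold a copy inside a transcript of another gene (Gins1 for Rpl41, Wdr89 for Rplp2), and the sums include all reads of these rows.

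**Figure D3:**
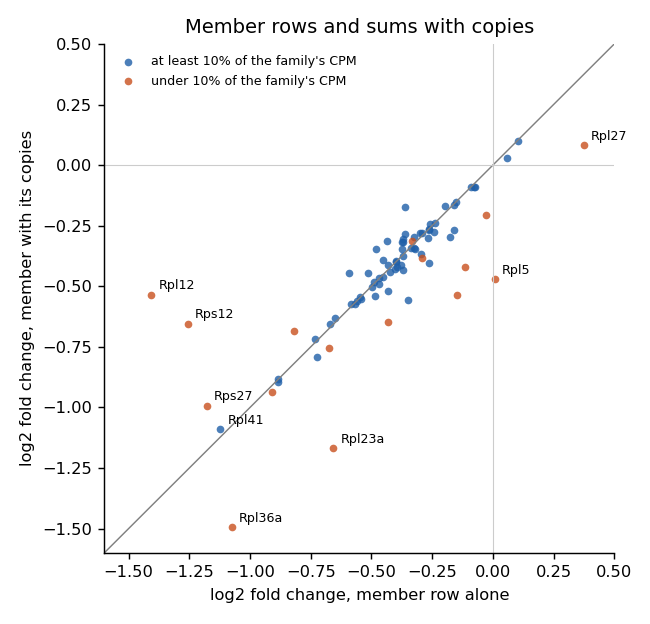
Log2 fold change of each member in its own row (x axis) and summed with its copies (y axis), Nelfb-/- over CTL, on the same scale with the line of equal values. Members that hold under 10% of the CPM of their family lie farthest from the line, such as Rpl12 (-1.41 alone, -0.53 summed) and Rpl23a (-0.66 alone, -1.17 summed).

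The level of a member per kilobase of its transcript can be compared between genes. The member rows spanned a 116-fold range, from 5.3 CPM per kb in Rpl5 to 614 in Rps15, whereas the sums with copies spanned 31.7-fold, from 24.3 CPM per kb in Rpl7l1 to 770 in Rpl23a. The 4 paralogs Rpl7l1, Rpl39l, Rpl22l1 and Rps27l were the lowest of the sums, at 24.3, 33.3, 50.7 and 59.1 CPM per kb, and the other 76 members spanned 12.01-fold. The CPM per kb of Rpl5, Rps27 and Rpl17, the lowest of the member rows, was under 10, and each of the 3 rows held 2% or less of its family.

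Paralogs of ribosomal proteins were compared with their parent genes within each library, where neither depth nor scaling matters. The ratio was higher in Nelfb-/- cells in 5 of the 6 pairs that could be measured, with no overlap between the groups, and with copies summed it did so in 5 of 6 as well. Ratios to these parents were also higher, without overlap, for many other genes. On the member rows this held for 42.2% of all genes tested with Rpl7, 45.1% with Rps4x, 66.6% with Rpl39, 74.2% with Rpl36a, 74.8% with Rps27 and 35.8% with Rpl22 as the parent. With copies summed it held for 43.4, 46.9, 67.3, 85, 71.4 and 37% in the same order. Each of the 5 pairs had an exact permutation p of 0.1 (two-sided), the smallest that 3 libraries against 3 allow, so that no pair could pass 0.05. Rps27l, a target of p53, was at 26.1, 28.05 and 33.4 CPM in the CTL libraries versus 24.4, 27.2 and 26.4 CPM in the Nelfb-/- libraries (log2 fold change -0.16, SE 0.15), while Rps27 with its copies fell by 0.99 on the log2 scale. The log2 ratio of Rps27l to Rps27 went from -2.72 ± 0.11 to -1.89 ± 0.06 (SD, n = 3) with copies summed. To the row of Rps27 alone it went from 3.50 ± 0.25 to 4.55 ± 0.29, so that which of them had more CPM depends on the copies. Rpl39l, known from male germ cells, was at 19.7, 31.7 and 31.4 CPM in the CTL libraries versus 19.5, 34.0 and 24.6 CPM in the Nelfb-/- libraries, and its log2 ratio to Rpl39 was -1.87 ± 0.31 and -1.06 ± 0.34. Rpl36al to Rpl36a with its copies went from -0.99 ± 0.08 to 0.15 ± 0.22, so that the paralog had less CPM than its parent in all CTL libraries and more in 2 of the 3 Nelfb-/- libraries. Against the row of Rpl36a alone the paralog had more CPM in all 6 libraries, at log2 ratios of 3.37 ± 0.13 and 4.10 ± 0.31. Copies were sought for members only, so that neither Rpl36al nor Rps4l was summed with copies. Rpl7l1 to Rpl7 went from -3.21 ± 0.11 to -2.73 ± 0.06, and Rps4l, a retrogene of Rps4x that the table labels as a pseudogene, to Rps4x from -3.59 ± 0.10 to -3.01 ± 0.39. In the sixth pair, Rpl22l1 to Rpl22, the groups overlapped (-2.50 ± 0.49 and -2.67 ± 0.21). Rpl3l and Rpl10l were not analysed here.

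**Figure D4:**
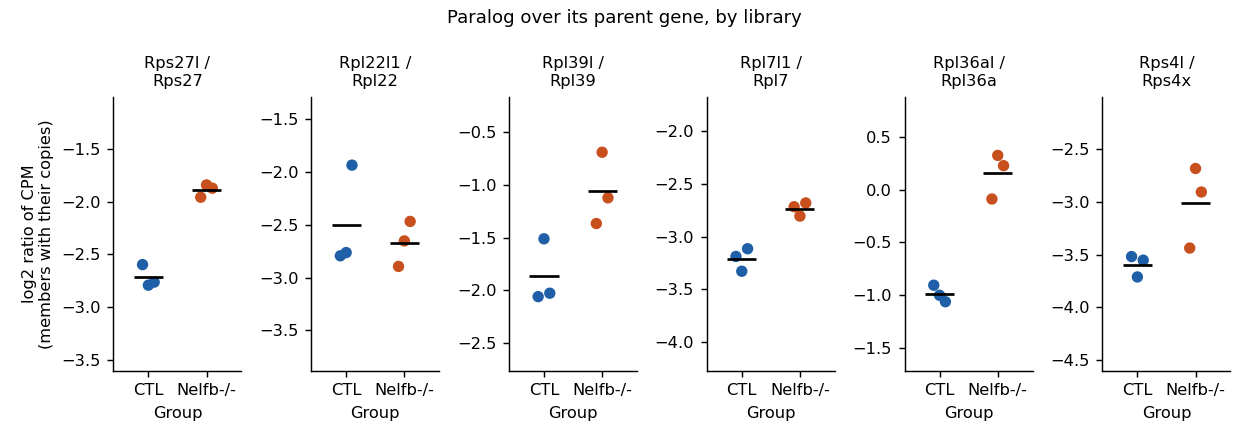
Log2 ratio of the CPM of a paralog to that of its parent gene (y axis, members summed with their copies, equal spans in all panels) in the CTL and Nelfb-/- libraries (x axis). Points are libraries and bars are means of 3, and the groups do not overlap in any pair but Rpl22l1 to Rpl22.

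The coding sequences of 2 of these pairs are shown, to let the differences between paralog and parent be seen beside the near-identity of the copies above. The other pairs were not compared by sequence. The first 120 coding bases of Rps27 (chr3:90212522-90213651, minus strand) and Rps27l (chr9:66946086-66949516, plus strand) are shown with the 28 differing bases in capitals. Over all 255 coding bases they were 76.1% identical, and the longest run they shared was 11 bases.
Rps27: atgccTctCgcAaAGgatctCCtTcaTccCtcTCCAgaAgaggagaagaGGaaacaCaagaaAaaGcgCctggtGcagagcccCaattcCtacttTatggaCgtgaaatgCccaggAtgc
Rps27l: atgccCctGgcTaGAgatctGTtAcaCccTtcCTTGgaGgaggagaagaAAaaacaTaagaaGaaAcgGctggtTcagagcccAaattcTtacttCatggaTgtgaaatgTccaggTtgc
Rpl39 (chrX:37082520-37085402, minus strand) and Rpl39l (chr16:10170226-10174911, plus strand) were 85.3% identical, with 23 differing bases of 156, and are shown whole.
Rpl39: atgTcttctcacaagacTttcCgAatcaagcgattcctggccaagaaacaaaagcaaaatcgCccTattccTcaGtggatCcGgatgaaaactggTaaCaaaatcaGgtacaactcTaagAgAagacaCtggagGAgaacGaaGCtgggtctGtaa
Rpl39l: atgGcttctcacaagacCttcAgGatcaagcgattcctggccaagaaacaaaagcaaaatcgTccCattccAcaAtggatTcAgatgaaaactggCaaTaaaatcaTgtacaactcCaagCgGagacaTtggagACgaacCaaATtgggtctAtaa

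To see which members departed from the shift of the group, each library was divided by the geometric mean of the 80 members, which was 60.3, 64.8 and 84.2 CPM in the CTL libraries versus 46.8, 55.8 and 51.6 CPM in the Nelfb-/- libraries. On this scale 2 members were called (limma): Rpl41 was lower, with a relative log2 fold change of -0.69 (adjusted p = 0.0217), and Rpl7l1 was higher, with 0.53 (adjusted p = 0.0365). This scale shifts all other genes upwards, so that 2.23% of all genes tested were called lower and 26.7% higher. With copies summed 6 members were called, of which Rpl41, Rps27, Rpl36a and Rpl23a were lower and Rpl7l1 and Rpl27 higher than the mean member, where 2.14% of all rows tested were called lower and 27.5% higher. No member was called on this scale when the replicate number was added to the fit as a block. The same held without CTL replicate 1, CTL replicate 2, Nelfb-/- replicate 2 or Nelfb-/- replicate 3. In contrast, 4 were called without CTL replicate 3 or Nelfb-/- replicate 1. The other members were not called on this scale.

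Promoter sequences from RefSeq (GRCm38.p6, 250 bases before to 50 after each start) were matched to 60 members with 71 start sites, among them all 11 called members. A pyrimidine run was counted where a C with at least 4 further C or T began between 2 bases before and 3 bases after the annotated start on the gene's strand. It was found at 24 of the 71 starts (33.8%), against 10.6% of all 32851 promoters, and at 3 of the 11 called members. These 3 are shown in windows of 28 bases, 12 before the start and 16 from it, with the run in capitals, followed by Rps21 and Rpl22l1, which were not called and have such runs too.
Rps6 (chr4:86857352-86857379, minus strand): cggaagtcgggCCTCTTTTTCgtgacgc
Rps27 (chr3:90213633-90213660, minus strand): tccgctttcgCTCCTTTCCggcggtgac
Rpl12 (chr2:32961700-32961727, plus strand): ggagcaggatccgtCTTTTCggctttcg
Rps21 (chr2:180257367-180257394, plus strand): cgaggacccgCCCTCCTgcccaatagtg
Rpl22l1 (chr3:28805496-28805523, plus strand): cggcgcaagcccgttCTCTTCCCacggc
An annotated start need not be the base at which the mRNA begins in these cells. Rplp0 and Rpl41 had no run in this window, which says only that the letters are not next to the annotated start. Of 5 further motifs searched on both strands of the 300 bases, CCGGAAG (the site of ETS factors such as GABPA) was in 36.6% of member promoters and in 8.86% of all, GGGCGG (Sp1) in 60.6% and 35.7%, AAGATGGC (YY1) in 11.3% and 2.75%, CACGTG (E-box) in 11.3% and 7.15%, and TATAAA in 9.86% and 13.6%. Among the 11 called members CCGGAAG was present in 4, GGGCGG in 5, AAGATGGC in 1, CACGTG in 1 and TATAAA in 3.

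Genes that work with the ribosomal proteins did not all shift with them. Of the 6 ribosomal proteins outside the naming rule, all had a log2 fold change below 0, and 1 was called lower (16.7%, against 5.83% of all genes tested). This was Rps27rt, which shares its coding sequence with Rps27 and was also counted among the copies above. It was at 169, 206 and 237 CPM in the CTL libraries versus 100, 104 and 101 CPM in the Nelfb-/- libraries (log2 fold change -0.99, SE 0.16). Rps3a1, Rpl36al, Fau and Rack1 had log2 fold changes of -0.47, -0.35, -0.41 and -0.30 and were not called. Of the 25 other genes whose RNAs begin with a TOP motif, 8 were called lower (32%, against 5.83% of all genes tested) and 0 higher (against 9.96%, limma), with a median of -0.30. The 8 included 4 host genes of small nucleolar RNAs, Snhg5 (-1.68), Gas5 (-1.23), Snhg8 (-1.22) and Snhg1 (-1.20), the poly(A)-binding protein Pabpc1 (-1.05) and the initiation factor Eif3f (-0.72). The elongation factors Eef1a1 and Eef2, the most abundant of this list, had log2 fold changes of -0.30 and -0.27 and were not called. Of the 78 proteins of the mitochondrial ribosome, 67 had a log2 fold change below 0 (85.9%, against 45.4% of all genes tested), with a median of -0.25, and 12 were called lower (15.4%, against 5.83%) and 0 higher (limma). Among these were Mrps28 (-1.26), Mrpl24 (-0.82) and Mrpl51 (-0.77). Transcripts of the mitochondrial genome took 5.56, 6.24 and 3.04% of reads in CTL and 2.47, 1.24 and 2.06% in Nelfb-/- cells.

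Factors that assemble ribosomes were not shifted downwards as a group. Of 107 assembly factors 79 had a log2 fold change above 0 (73.8%, against 54.6% of all genes tested), with a median of 0.25 against 0.07. Of these factors 6 were called higher, 5.61% against 9.96% of all genes tested, and 1 was called lower, 0.93% against 5.83%. Nop56, a core protein of box C/D small nucleolar ribonucleoproteins, rose from 39.0 to 100.02 CPM (log2 fold change 1.36 ± 0.11 SE, with adjusted p = 0.00335 by limma). Bop1, Wdr3, Tbl3 and Wdr75 rose by log2 fold changes of 0.84, 0.75, 0.66 and 0.66, while Imp3 fell by 0.96. The 34 initiation factors that are not on the list of TOP mRNAs had a median of 0.09, near that of all genes. Eif1 was called lower (-0.98) and Eif5a2 higher (0.95), each 2.94% of the list, against 5.83% and 9.96% of all genes tested. The 18 tested genes of RNA polymerase I and rDNA transcription had a median of 0.02. Of these 1 was called, Polr2l (0.88), which was higher (5.56%, against 9.96% of all genes tested).

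**Figure D5:**
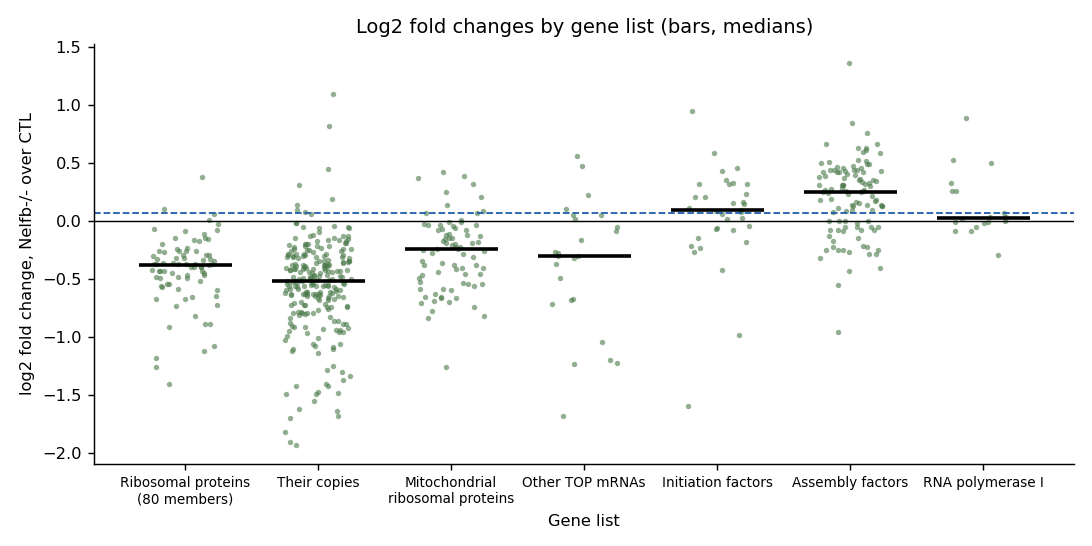
Log2 fold changes, Nelfb-/- over CTL (y axis), of the genes of 7 lists (x axis), where points are tested genes, bars are medians and the dashed line is the median of all genes tested. The ribosomal proteins, their copies, the mitochondrial ribosomal proteins and the other TOP mRNAs have medians of -0.38, -0.52, -0.25 and -0.30, and the assembly factors of 0.25.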

How the data were processed

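RNA-seq values of 3 CTL and 3 Nelfb-/- samples were taken from the gene table that the authors deposited, whose values are CPM to which an offset of 0.0001 had been added. The labels name STAR (2.7), Partek (9.0.20.0202) and mm10 without their roles. The paper's methods name DESeq2 for the alignment, Partek for the comparison, and a limit of 10 reads. Counting and strand settings are not given in the sources used here. Of the values up to 20 reads, 69.3% to 72.1% were within 0.02 of whole reads, so that no count test was run. The offset was subtracted, values were scaled to a common depth of 22.3 M reads (M, 1000000), and genes averaging 10 reads or more (0.448 CPM) entered limma (3.58.1, under R 4.3.3), run two-sided on log2(value + 1) with an abundance trend and Benjamini-Hochberg adjustment over all genes tested. Fold changes on this scale understate those of low genes. The script was tested on simulated data. Copies were found with BLAST. Start and end of all 80 members were the same in GENCODE vM21. Named are the members past an adjusted p of 0.05, paralog pairs, stalk proteins, a few fixed genes, the highest and lowest members, and up to 6 called genes of a list. Rpl27, Rps21, Rpl23a, Rpl24, Rpl35a, Eef1a1, Eef2, Myc, Tyr, Mbp and single copies were named after their values were seen. The members and lists were chosen with earlier results of these data known, and the ratio tests of paralogs were added later. Alternatives were other pseudocounts, filters, scalings, variances and weights, a replicate block, libraries left out, and members summed with pseudogenes or copies. The p-values measure the spread between the 3 biological replicates of each group.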

Additional observations from a re-analysis of the deposited data

How the results depend on the processing

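Of the fits of all 6 libraries, 5 to 33 members were called: 5 without moderation of the variances (6.93% of all genes called), 33 (30 lower) with array weights, a setting that called 60.7% of all genes and brought the median log2 fold change of the members to -0.20, and between 9 and 13 in the others (14.9% to 16.6% of all genes). At least 2-fold were 3 with a pseudocount of 1 CPM, 3 without moderation and 3 with copies summed. Leaving out each library in turn, 0 to 11 members were called, 0 to 7 by at least 2-fold, and the median log2 fold change was -0.47 to -0.25. Without both CTL replicate 3 and Nelfb-/- replicate 1, a choice made after the data were seen, 28 members (25 lower) were called. In that fit 57.8% of all genes were called (24.7% lower), and the median was -0.16 over the members and 0.08 over all genes. Median-of-ratios and TMM-type factors moved the median of all genes by -0.07, and that of the members to -0.45 and -0.45. Relative to the mean member, 4 were called with the median in its place, 6 with copies summed, 0 with the replicate block, and 0 to 4 with each library left out. The replicate numbers did not pair the samples (correlations of same-numbered deviations 0.52, -0.39 and 0.52, with replicate 2 of each group nearer to other numbers). With the replicate block 9 members were called, 4 by at least 2-fold, and 16.6% of all genes were called. Members near 0 changed sign: Rpl5 was at -0.061 with median-of-ratios and -0.060 with TMM-type factors, -0.00041 without ribosomal reads in the total, -0.0044 with array weights, -0.23 with named pseudogenes, -0.47 with copies, and -0.15 to 0.10 with each library left out. Rpl39l was at 0.14 with array weights, -0.32 to 0.10 with each library left out and 0.21 without both of the above, Rpl17 at 0.013, -0.31 to 0.12 and 0.15 in these, and Rpl4 at 0.0025 with array weights and at 0.056 without both. Rpsa was at -0.58 to -0.15 with each library left out and at 0.052 without both. The causes were not tested. Depth limits the rows of few reads, such as Rps27 (41.2 reads at the mean over libraries).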

Other observations

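Among regulators of ribosomal protein genes few were called, where 5.83% of all genes tested were called lower and 9.96% higher. Of 12 measured genes of the MYC network, Mycl (9.0 to 0.73 CPM, log2 fold change -3.37, SE 0.61) and Mxi1 (-0.89) were called lower (16.7% of the list) and Max (0.56) higher (8.33%), while Myc itself was at 111, 105 and 92.0 CPM in CTL and at 153, 122 and 103 CPM in Nelfb-/- cells (0.28, SE 0.18) and was not called (limma). Of 35 genes of mTORC1 and TOP control, Eif4ebp1, an inhibitor of translation initiation, was called lower (-0.80, 2.86% of the list), and Deptor (0.79) and Rps6ka1 (1.67) higher (5.71%). Of 16 promoter factors of ribosomal protein genes 0 were called in either direction (limma). Of 11 genes around p53 and Mdm2, 1 (9.09%, near the share of all genes) was called: Trp53 was higher, from 33.8 to 64.7 CPM (log2 fold change 0.96, SE 0.24).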
